A study of Bos taurus with 90 samples.

Results

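The genes described here are the 200 genes whose level differed most between bovine oocytes of the same follicle stage. They were chosen by their spread. CPM, the count of a gene scaled to the total count of its library, was taken over 27 single oocytes, 6619 of 27270 genes had a mean CPM of 20 or more, and the 200 genes with the highest variance of log2(CPM + 1), pooled within the stages, were kept (3.02% of the 6619). The oocytes came from antral follicles of Bos taurus ovaries collected at a slaughterhouse, with 9 from small follicles (diameter 3.1 to 3.8 mm), 8 from medium follicles (6.2 to 7.0 mm) and 10 from large follicles (9.6 to 11.6 mm). No treatment is given in the labels, and neither the age of the cows nor the animal behind each follicle is stated. According to the methods, the follicles were taken in a few batches with few ovaries in each, so that follicles share cows and batches of collection, which the labels do not tie to single libraries. The oocyte, a pool of its cumulus cells (CCs) and its mural granulosa cells (MGCs) were sequenced from each follicle. The rule leaves out the oocytes OS70702, OM71804 and OM71001, which are described separately, and CC pool CS70701 was left out of the comparisons with CCs because it held counts for 1066 genes only. Libraries are named as in the count table, with O for oocyte, C for CCs and G for MGCs, then S, M or L for the stage and the identifier of the follicle.

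As background, the oocyte of an antral follicle stores transcripts that serve maturation and the first divisions of the embryo, and its own transcription declines as it completes growth. CCs touch it through projections that cross the zona pellucida and through gap junctions, whereas MGCs line the follicle wall. The amplification used for the oocytes and CC pools (SMART-seq2) copies full-length cDNA from a very small input. A transcript that is missed at reverse transcription and a transcript that is absent from the cell cannot be told apart in such libraries. In the same way, fewer cells of a type and less RNA per cell cannot be told apart in the CC and MGC samples.

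The oocyte libraries held 8442938 to 53173320 counts and 10588 to 16641 genes with a count of at least 1. The oocytes OS50502, OL71801 and OS71701 stood apart with 10588, 11861 and 12026 genes detected, and the next lowest, OS70501, had 13037. Their totals of 44993182, 25834621 and 36989249 counts were within the range of the other oocytes. Counts are not of single molecules, so that intervals and limits from them cover counting error only. The genes are listed by Ensembl identifier, and none of the identifiers could be paired with a symbol. The cell type of a library could therefore not be checked against marker genes, no gene function is given, and 4 identifiers are named in all.

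The pooled variance ranged from 10.1 for the first gene and 7.92 for the second to 1.332 and 1.330 for the last genes inside the list, and the first genes outside had 1.327 and 1.325. The limit of 200 therefore did not fall at a step in the values. The median variance was 1.59 among the 200 genes and 0.235 among the 6619, which corresponds to a median SD of 1.26 and 0.48 on the log2 scale. The spread was largest in small follicles. The 200 genes had a median variance of 3.47 among small, 0.335 among medium and 0.833 among large oocytes, beside 0.313, 0.126 and 0.174 for all 6619. For 154 genes the highest of the 3 stage variances was that of small follicles, for 39 that of large and for 7 that of medium follicles. In all 3 stages, 47 genes were among the 10% most variable genes of that stage. The genes were of moderate level, with a median of the mean CPM of 32.9 against 68.9 over the 6619, and 7 of them had a mean of 100 CPM or more. Together they held 0.667% to 1.5% of the counts of an oocyte.

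Among themselves, most of the genes moved in 3 blocks. Average-linkage clustering on the correlation of the within-stage deviations placed 157 genes in 3 groups of at least 10 genes and left 43 outside. Group 1 held 89 genes, group 2 held 46 and group 3 held 22, and the median correlation between pairs of genes was 0.63, 0.73 and 0.65 within the groups and -0.01 among the 43 genes outside. These groups were formed from the values that chose the genes and are described without a test. The low values of each group lay in oocytes with few genes detected, which differed between the groups.

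**Figure D1:**
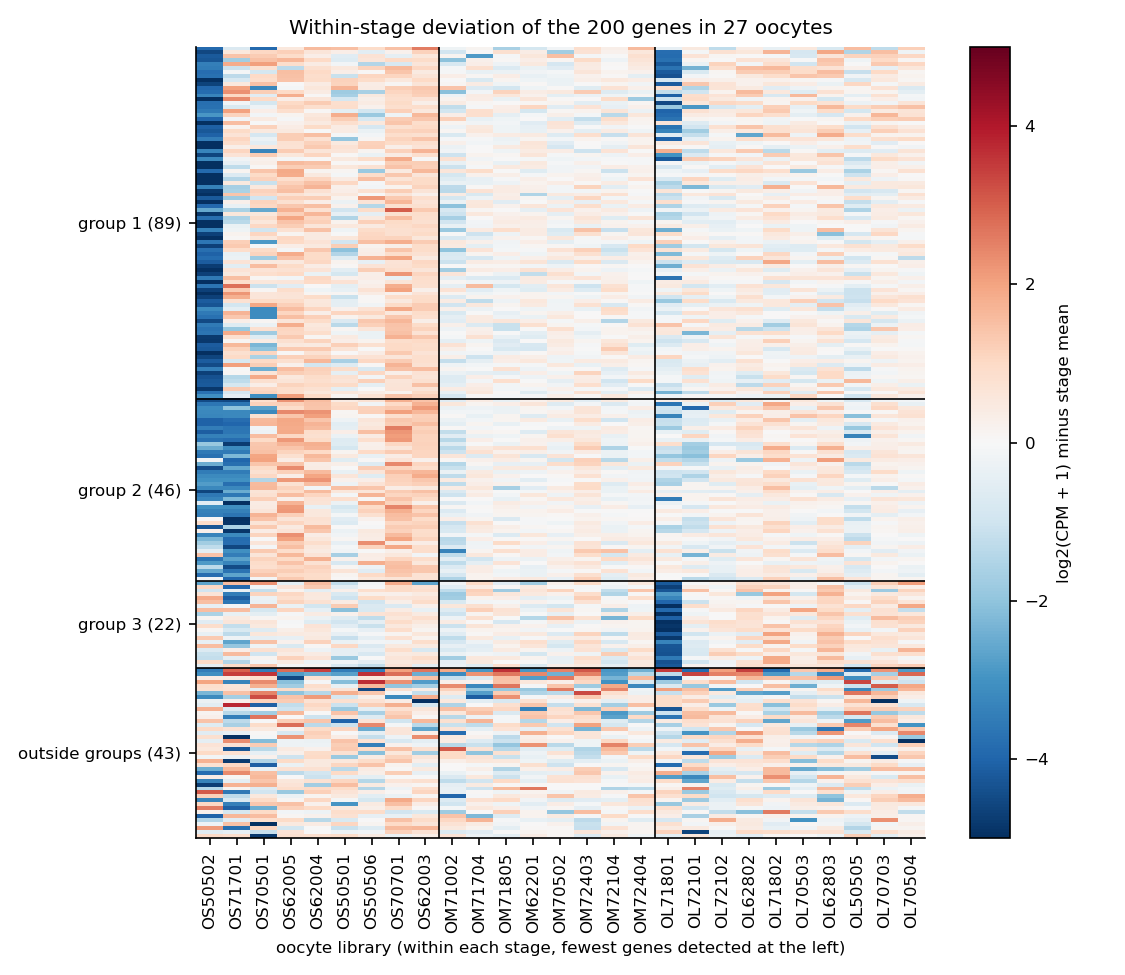
Deviation of log2(CPM + 1) from the stage mean for the 200 genes (rows, by group and then by variance) in the 27 oocytes (columns, by stage and then by genes detected), with colours ending at 5 on either side. The blocks of low values lie in OS50502 for groups 1 and 2, in OS71701 for group 2 and in OL71801 for group 3 and part of group 1, and the 43 genes outside the groups show no shared column.

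The genes of group 1 were low in OS50502. Their median level was 0 CPM in this oocyte and 32.4 CPM in the other small oocytes, all 89 genes lay more than 4-fold below the stage median, and 57 had no count. A count of 0 in OS50502 allows up to 0.0667 CPM (3 counts of its total). The same genes had a median of 28.6 CPM in OS71701, close to the 30.5 CPM of the other small oocytes. In OL71801 their median was 19.97 CPM against 33.4 CPM in the other large oocytes, with 26 of the 89 more than 4-fold below the stage median.

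The genes of group 2 were low in both of these small oocytes. Their median was 0.0270 CPM in OS71701 and 0.0889 CPM in OS50502, against 25.6 CPM in the other small oocytes in either case. All 46 were more than 4-fold below the stage median in OS71701 and 37 in OS50502, and 22 and 19 had no count. In OL71801, 5 of the 46 were that low.

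The genes of group 3 were low in OL71801. Their median was 0 CPM there and 28.1 CPM in the other large oocytes, all 22 were more than 4-fold below the stage median, and 14 had no count. In OS50502, the oocyte with the fewest genes detected, the median of group 3 was 24.4 CPM against 25.1 CPM in the other small oocytes, and 1 of the 22 was more than 4-fold below. In OS71701 it was 24.5 CPM against 25.6 CPM, with 6 of the 22 that low.

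Over all 200 genes, the share more than 4-fold below the stage median was 68.0% in OS50502 (136 genes), 38.0% in OS71701 (76) and 30% in OL71801 (60). Over the 6619 genes it was 10.5%, 8.02% and 3.38% in the same oocytes. The next highest share of the 200 genes was 13.5%, in OS70501. The low genes of OS50502 and OS71701 had 51 in common, which is 37.5% of the first list and 67.1% of the second. OS50502 and OL71801 shared 32 (23.5% and 53.3%), OL71801 and OS71701 shared 16 (26.7% and 21.1%), and 8 genes were low in all 3. Of the 200 genes, 98 were low in 1 of these oocytes, 75 in 2 and 19 in none. The 3 oocytes held 26.5%, 11.9% and 11.2% of the within-stage sum of squares of the 200 genes, 49.6% in all, and 38.1% of that of the 6619 genes. Because the genes were selected on this same spread, these shares describe the list and support nothing.

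**Figure D2:**
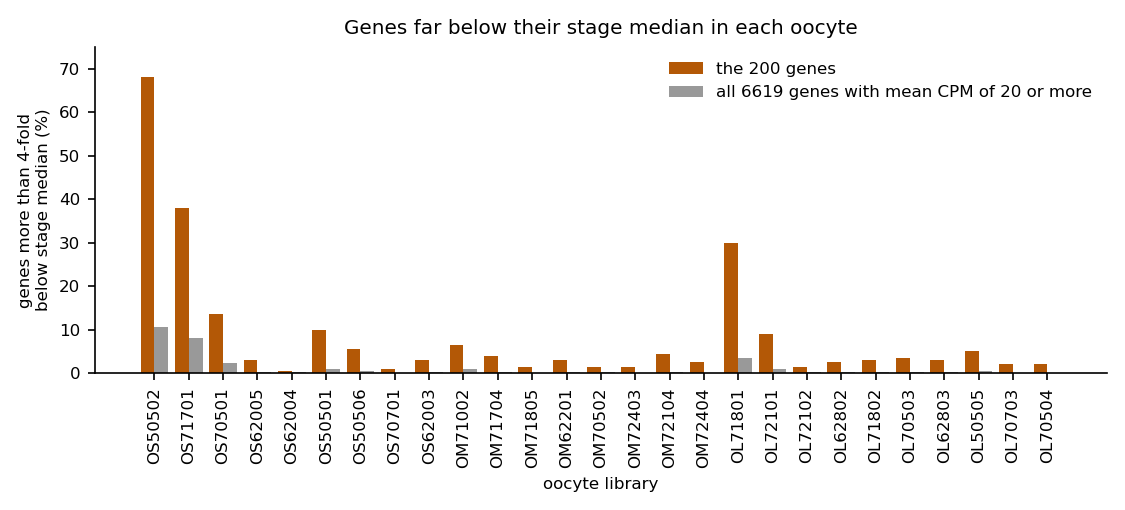
Share of genes more than 4-fold below their stage median in each of the 27 oocytes, for the 200 genes and for all 6619 genes with a mean CPM of 20 or more. OS50502 (68.0%), OS71701 (38.0%) and OL71801 (30%) stand above the other oocytes, of which OS70501 is the highest with 13.5%.

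The level of the list in an oocyte was summarised as the mean of the 200 within-stage deviations. It was -2.58 in OS50502, -1.18 in OL71801 and -0.88 in OS71701 on the log2 scale, and the next lowest was -0.42 in OM71002. The highest levels were all in small oocytes, 0.92 in OS70701, 0.77 in OS62005, 0.70 in OS62004 and 0.70 in OS62003. Since the deviations of a stage sum to 0, the low oocytes of the small stage raise the deviations of the others. The identifier prefix of the follicle (its first 3 digits, whose meaning is not stated) was shared by low and other oocytes. The prefix of OS50502 was also that of OS50501 at -0.07, OL50505 at -0.23 and OS50506 at 0.23, with a mean of -0.66 over these 4, that of OS71701 was also that of OM71704 at 0.00, and that of OL71801 was also that of OL71802 at 0.37. OS62003, OS62004 and OS62005 share a prefix and were all high. Of the 9 prefixes with at least 2 oocytes, 5 held only levels above 0 and 0 held only levels below 0.

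The level went with the number of genes detected. Pearson's r between them, both as within-stage deviations, was 0.86 and Spearman's rho 0.65 over the 27 oocytes, and r was 0.72 after leaving out the 2 oocytes farthest in genes detected. Taken by stage, r was 0.90 among small, 0.71 among medium and 0.87 among large oocytes. Without OS50502, OL71801 and OS71701, with the deviations taken from the remaining oocytes, r was 0.49. With the log2 of the total count r was -0.25. These values are descriptions, since the genes were selected on their spread in the same oocytes. For the correlations and the fits, genes detected were counted over the genes outside the list.

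**Figure D3:**
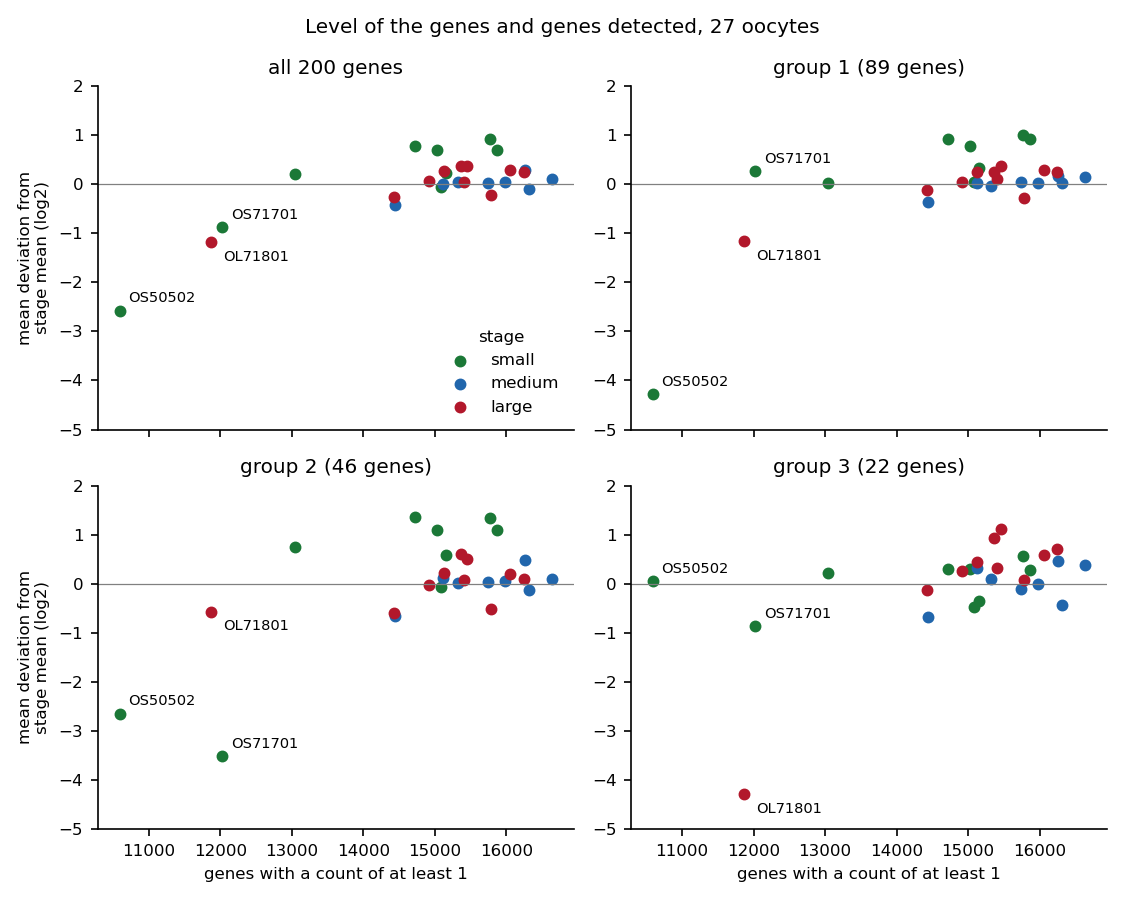
Mean deviation from the stage mean (log2) of all 200 genes and of groups 1 to 3 against the number of genes with a count of at least 1 in the 27 oocytes, coloured by stage. OS50502 lies at -4.28 for group 1 and near 0 for group 3, and OL71801 lies at -4.28 for group 3.

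Gene by gene, the correlation with genes detected had a median of 0.54 over the 200 genes and 0.12 over the 6619. It was 0.5 or more for 111 of the 200 genes (55.5%), against 12.5% of all 6619, and 15 genes were below 0. The median was 0.59 in group 1, 0.63 in group 2, 0.49 in group 3 and 0.10 outside the groups. The fit on counts gave a more cautious picture. With edgeR's quasi-likelihood test, stage in the model and Benjamini-Hochberg adjustment over 13660 genes, 11 of the 200 genes (5.5%) rose with genes detected, and 3.96% of all genes did. None fell, against 0.842% of all genes. The share of the list was thus close to that of all genes. Because the genes were chosen on their spread in the same oocytes, the fit is no independent test of the list. At an unadjusted p under 0.05, 52 of the 200 rose and 0 fell, against 2167 and 776 of all 13660 genes. DESeq2 called 48 (24%) higher and 0 lower, against 13.6% of all genes higher. The fitted slope was above 0 for 172 of the 200 genes and for 60.5% of all, with a median of 0.25 and 0.05 log2 per 1000 genes detected.

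The number of calls changed with the oocytes included. Without OS50502, OL71801 and OS71701, edgeR called 0 of the 200 genes and 0 genes in all, over the narrower range of genes detected that remained. Without OS50502 alone 5 of the 200 rose and 1 fell, without OL71801 17 rose, without OS71701 11 rose, and without OS70501, which has few genes detected and a level of 0.20, 29 rose. Over all genes, 298, 584, 445 and 939 rose in these fits. Of the 11 genes called with all 27 oocytes, 6 belonged to group 1, 4 to group 2 and 1 to group 3, and their slopes were 0.52 to 0.92 log2 per 1000 genes.

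The steepest positive slope was that of ENSBTAG00000016161, the 27th gene by variance and a member of group 2. Its CPM was 0, 15.5 and 38.8 (lowest, median and highest) in small oocytes, 12.7, 21.5 and 26.9 in medium and 1.2, 32.6 and 59.0 in large oocytes. The lowest values were those of OS50502 (0), OS71701 (0.0270) and OL71801 (1.2). The next lowest was 4.35 in OL50505, an oocyte with 15782 genes detected, and the next lowest small oocyte had 9.05. The slope was 0.96 ± 0.30 (SE) log2 per 1000 genes, with an adjusted p of 0.0601 from edgeR and 1e-05 from DESeq2. Without the 3 oocytes it was 0.05 (adjusted p = 0.960 from edgeR). In the matched cells of these follicles the gene was measured at 35.1, 8.55 and 79.2 CPM in CCs and 116, 63.5 and 54.0 CPM in MGCs, so that the follicle cells held the transcript where the oocyte library held little or none.

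The steepest negative slope was that of ENSBTAG00000007090, the 10th gene by variance, which lay outside the groups. Its CPM was 0, 10.8 and 231 in small, 9.15, 44.4 and 93.7 in medium and 3.24, 25.5 and 33.1 in large oocytes. The highest small oocyte was OS71701, and the one at 0 was OS70501. The slope of -0.29 ± 0.24 (SE) log2 per 1000 genes did not pass the test (adjusted p = 0.532 from edgeR). Without the 3 oocytes the slope was 1.0 and did not pass either (adjusted p = 0.547 from edgeR). CCs held up to 0.340 CPM and MGCs up to 0.0638 CPM of this gene.

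The genes with the largest variance lay outside the blocks. None of the first 10 belonged to a group, and their correlation with genes detected was between -0.25 and 0.22. For 7 of the 10 the mean was below 1 CPM in both CCs and MGCs, against 7.36% of the 6619 genes. Over the first 20 genes, 10 were below 1 CPM in both, 6 belonged to groups, and 5 had a correlation of 0.5 or more with genes detected. For 4 of the 200 genes the oocytes parted into a high and a low set, with a gap of at least 3 on the log2 scale and at least 3 oocytes on either side. The genes were chosen for their spread, which favours such gaps, and the count was not made over the 6619 genes.

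ENSBTAG00000055007, the gene of highest variance, was close to all or none. In 12 oocytes it had 0 to 1.06 CPM, 9 of them without a count, and in the other 15 it had 26.7 to 163 CPM. The low set held 4 small, 4 medium and 4 large oocytes, and the high set 5, 4 and 6. The median was 45.5 CPM in small, 13.6 in medium and 43.3 in large oocytes, and the ranges overlapped in full. OS71701 (84.5 CPM) and OL71801 (163 CPM, the highest of all) were in the high set in spite of their few genes detected. No MGC library had a count, and the highest CC value was 1.02 CPM. The slope on genes detected was -0.20 ± 0.47 (SE) log2 per 1000 genes (adjusted p = 0.854 from edgeR).

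ENSBTAG00000023697, the second by variance, was named after its values were seen. In 15 oocytes it had 4.76 to 34.0 CPM and in 12 it had 302 to 879 CPM, with 5 small, 4 medium and 6 large oocytes in the low set and 4, 4 and 4 in the high set. None of these oocytes lay between. Of the oocytes that the rule leaves out, OM71804 did lie between, at 64.9 CPM. OS70702 had 7.66 CPM and OM71001 had 0.730 CPM, below the low set. Within the sets, OS50506 had the highest level of the gene (879 CPM) and OL62803 the lowest (4.76 CPM). In CCs it reached 0.780 CPM and in MGCs 1.19 CPM, with a highest CC value of 0.683 CPM in the follicles of the low set and 0.780 CPM in those of the high set. The sets of both genes crossed, with 6 oocytes high for both, 9 high for ENSBTAG00000055007 alone, 6 high for ENSBTAG00000023697 alone and 6 low for both. Of the 9 prefixes with at least 2 oocytes, 4 held oocytes of one set only for the first gene and 2 for the second.

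**Figure D4:**
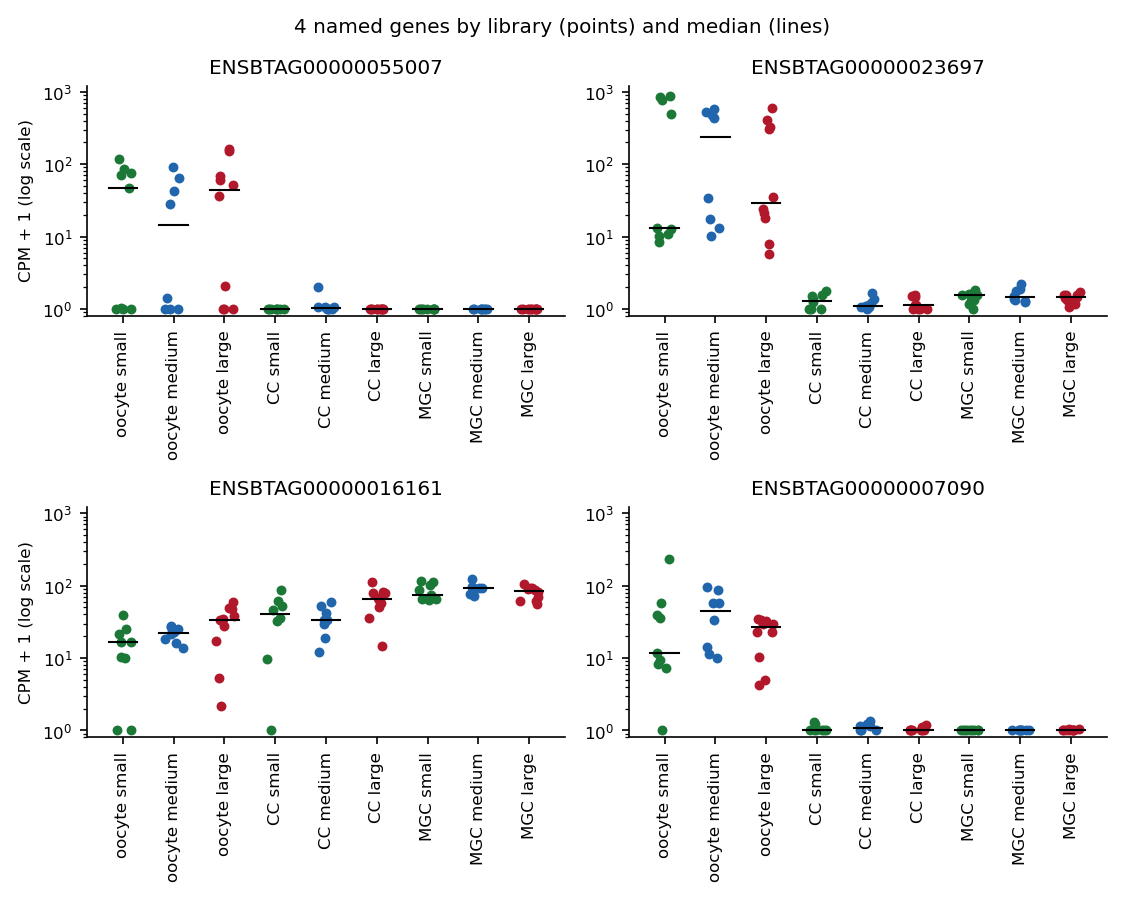
CPM + 1 on a log axis of the 4 named genes in oocytes, CCs and MGCs by stage, each point a library and each line a median. ENSBTAG00000055007 and ENSBTAG00000023697 part the oocytes of every stage into a low and a high set, whereas ENSBTAG00000016161 is low in few oocytes and is present in MGCs at 54.0 to 123 CPM.

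Between stages, none of the 200 genes passed the test in oocytes. The genes were chosen for a large spread within stages, the spread against which a stage difference is tested. Calls were thus made less likely by the choice, and their absence says little about stage. A call needed an adjusted p under 0.05 from edgeR and, as a further filter, a fold change above 2. Of the 200 genes, 0 differed between small and medium oocytes (0.0732% of all 13660 genes), 0 between medium and large (0% of all) and 0 between small and large (1.35% of all). With the identifier prefix, which stages share in part, added to the fit, 0 genes in all were called between small and large, where 112 higher and 73 lower had been called without it. At an unadjusted p under 0.05 with the same fold change, 5 were higher and 2 lower in medium than in small oocytes, 2 higher and 0 lower in large than in medium, and 6 higher and 2 lower in large than in small. Over all 13660 genes these counts were 146 and 85, 19 and 28, and 327 and 192. DESeq2 called 0, 0 and 2 genes, the 2 higher in large oocytes. Over all genes it called 20 higher and 18 lower, 0 and 0, and 161 and 93. The median log2 change was 0.31 from small to medium, -0.04 from medium to large and 0.21 from small to large, against 0.04, 0.01 and 0.04 over all genes. Leaving out 1 oocyte gave 1 to 3 calls between small and large for OS70501, OS62005, OS70701, OS50502, OS71701 and OL71802, with 3 without OS50502. Without OS50502, 140 genes were higher and 70 lower over all genes.

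Small oocytes themselves had 14142 ± 1837 genes detected (SD, n = 9). Medium oocytes had 15728 ± 728 (SD, n = 8) and large oocytes 15063 ± 1245 (SD, n = 10). The difference of 1586 genes between small and medium had p = 0.0244 in a two-sided exact permutation test and 0.0731 after adjustment over the 3 pairs of stages. It was 851 genes (adjusted exact permutation p = 0.208) when genes above 1 CPM were counted, and with all 30 oocytes, which include OM71804 and OM71001, it was 27.3 genes (adjusted permutation p = 0.983). The differences of 922 genes between small and large and of -664 from medium to large had exact permutation p-values of 0.220 and 0.189.

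In the matched cells, 158 of the 200 genes (79.0%) had a mean of at least 1 CPM in CCs and 164 (82.0%) in MGCs, against 89.8% and 91.7% of the 6619 genes. In neither cell did 33 genes (16.5%) reach 1 CPM, against 7.36% of the 6619. The mean in CCs was above that of the oocytes for 67 genes (33.5%, against 26.3%) and that in MGCs for 82 (41.0%, against 26.2%). By group, the genes below 1 CPM in both cells were 14 of group 1, 1 of group 2, 3 of group 3 and 15 of those outside. The median CPM in CCs was 18.6, 23.6, 16.3 and 1.77 and in MGCs 26.6, 44.3, 18.5 and 6.27, in the same order. These are levels in CPM, which are not per length, and the comparison is of one gene between cells. According to the methods, MGC libraries were made by standard bulk RNA sequencing, and those of oocytes and CCs by SMART-seq2. Cell type and library method therefore cannot be told apart where MGCs are set against oocytes.

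A few of the genes, at shares near those of all genes, were far more abundant in the follicle cells than in the oocyte. The mean was more than 10-fold higher in CCs than in oocytes for 2 of the 200 genes (1%, against 1.01% of the 6619) and in MGCs for 6 (3%, against 1.83%). The 102nd gene by variance had a mean of 33555 CPM in CCs and 7523 CPM in MGCs, and 3.90 to 189 CPM in oocytes, with a mean of 30.6. Its correlation with the matched CCs was 0.12 and with genes detected 0.04. The 144th gene had 14441 CPM in CCs, 220 CPM in MGCs and 138 to 3597 CPM in oocytes, with a correlation of 0.16 with CCs. The part of RNA from CCs in the oocyte libraries was not tested. The values for MGCs again hold the difference in library method.

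Few of the genes low in OS50502 and OL71801 were more than 4-fold lower in the cells around these oocytes. Of the 136 low genes of OS50502, 106 had a mean of at least 1 CPM in the CC pools of the other small follicles. Their median was 22.1 CPM in its own CCs and 24.4 CPM in the others, and 0 were more than 4-fold lower, against 0.831% of the 6619 genes that could be compared. In its MGCs, 113 such genes had a median of 46.6 CPM against 29.9 CPM, with 1 (0.885%) more than 4-fold lower, against 2.55% of all. Of the low genes of OL71801, 46 had a median of 17.7 CPM in its CCs against 26.3 CPM in the other large follicles and 50 had 43.9 CPM in its MGCs against 38.6 CPM. In these, 0 and 1 (2%) were more than 4-fold lower, against 1.03% and 0.594% of all. In the CCs of OL71801, 13 of the 46 genes were higher than in the other large follicles, with a median log2 difference of -0.34 against 0.04 over all genes.

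Of the 76 low genes of OS71701, 69 were compared in the CCs of its follicle, where their median was 5.04 CPM against 20.5 CPM in the other small follicles, and 37 (53.6%) were more than 4-fold lower. In the same CC pool 27% of the 6619 genes that could be compared were that low, and the pool had 14262 genes detected. In its MGCs, 71 of the genes had a median of 43.9 CPM against 40.2 CPM, and 0 were more than 4-fold lower, against 1.07% of all. The part of the CC library as a whole in this value was not tested.

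Across follicles, the share of single genes related to the matched cells was not above that of all genes. The correlation of within-stage deviations between oocyte and CCs (26 follicles) had a median of 0.15 over the 200 genes and 0.17 over the 6618 with a value. It was 0.5 or more for 11 of the 200 (5.5%), against 7.56% of all, and ranged from -0.63 to 0.74. With MGCs (27 follicles) the median was -0.08 over 196 genes and 0.00 over all, and 2 genes (1.02%) reached 0.5, against 1.51% of all. Nor did the most variable genes of the oocyte stand out in the spread of MGCs. Of the 120 of them with a mean of at least 20 CPM in MGCs, the median percentile of the within-stage variance was 48.3 and 9 (7.5%) were among the 10% most variable. In CCs, with 96 such genes, the median percentile was 72.4 and 13 (13.5%) were among the 10% most variable.

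The mean over the list gave a different picture for CCs. The mean deviation of the 158 genes in the CC pool and that of the 200 genes in its oocyte had the same sign in 20 of 26 follicles, with r = 0.25 and rho = 0.57. The low r came from OS50502 and OL71801, the 2 oocytes farthest from the median, without which r was 0.66. Within the stages rho was 0.67, 0.62 and 0.53 in small, medium and large follicles. For the mean of all genes in the CC pool rho was 0.33, and for the mean of the list less that of all genes it was 0.73. Without the follicles of OS62003, OS62004 and OS62005, which were high in both, rho was 0.40 and r 0.10 over 23 follicles. With MGCs (164 genes) the signs were the same in 12 of 27 follicles, with r = -0.31 and rho = -0.23. By stage, rho was -0.67 for small, -0.17 for medium and 0.52 for large follicles. It was 0.02 without the same follicles of one prefix (24 follicles). These correlations are descriptions over follicles of which some share a cow or a batch of collection, and the part of either was not tested.

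**Figure D5:**
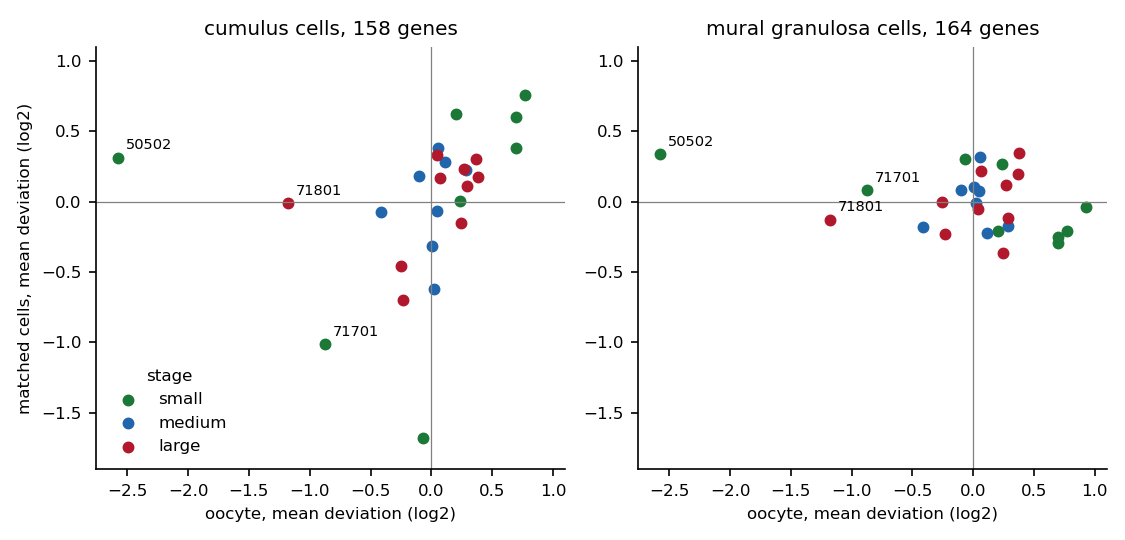
Mean within-stage deviation (log2) of the genes in the matched CC pools (left, 26 follicles, 158 genes) and MGCs (right, 27 follicles, 164 genes) against that of the 200 genes in the oocyte, coloured by stage. The follicle of OS50502 is lowest in the oocyte (-2.58) and above 0 in CCs (0.31) and MGCs (0.34), whereas that of OS71701 is low in the oocyte (-0.88) and in CCs (-1.01).

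No relation was detected between the number of genes detected in the oocyte and that in the matched cells. With CCs r was 0.13 and rho 0.20 (permutation test, p = 0.595 and 0.347, adjusted p = 0.614 and 0.399 over both cell types), and with MGCs r was -0.12 and rho -0.18 (p = 0.614 and 0.399). The CC pools of OS50502, OL71801 and OS71701 had 14913, 15584 and 14262 genes detected and their MGCs 18069, 16716 and 17771.

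From small to large follicles, CCs and MGCs were compared for the same genes. In CCs, 159 of the 200 genes passed the filter on low counts and 3 of them (1.89%) differed, all higher in large follicles, against 4.99% of all genes in either direction (edgeR, fold change above 2 and adjusted p under 0.05). They were the 23rd, 80th and 111th genes by variance. The first had 0.856 ± 0.865 CPM (SD, n = 8) in small and 10.6 ± 11.7 CPM (SD, n = 10) in large follicles, so that the spread was as large as the mean. With CS70701 included, 0 were called. In MGCs, 3 of 164 genes were higher and 3 lower in large follicles (3.66%, against 4.35% of all genes). The gene of lowest adjusted p was the 142nd by variance, with 29.8 ± 6.79 CPM (SD, n = 9) in small and 66.0 ± 25.9 CPM (SD, n = 10) in large follicles (log2 change 1.2 ± 0.22 SE, adjusted p = 0.00151 from edgeR). In oocytes its log2 change was -0.15 ± 0.39 (SE, adjusted p = 0.885 from edgeR).

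The 3 oocytes that the rule leaves out were not used to choose the genes. OS70702, with 14567 genes detected, was high for the list, with a mean difference of 1.12 on the log2 scale from the mean of the small oocytes, against 0.26 over the 6619 genes, and it had no gene of the list without a count. OM71804, with 6770 genes detected, was low by -2.79 against -1.64 over all genes, and 111 of the 200 genes (55.5%) had no count, against 26.8% of all. OM71001, with 9524 genes detected, was low by -1.31 against -1.30, with 45 genes (22.5%) without a count against 11.6% of all. In these medium oocytes the list was thus lower than genes in general in one and about as low in the other. The genes below every medium oocyte of the 27 made up 64.5% of the list in OM71804, against 50.9% of all genes, and 47.5% in OM71001, against 53.7%.

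Without OS50502, OL71801 and OS71701, 75 of the 200 genes were still among the 200 most variable. They were 25 genes of group 1, 7 of group 2, 5 of group 3 and 38 of the 43 outside the groups, and included all of the first 10. Of these 75, 24 (32.0%) were below 1 CPM in both CCs and MGCs, against 16.5% of the whole list, and the median correlation with genes detected over all 27 oocytes was 0.35.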

How the data were processed

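Counts per gene were deposited by the authors without normalization, for 90 libraries and 27270 Ensembl genes. The methods name STAR and featureCounts on ARS-UCD1.2, whereas the submitters' processing notes name HISAT2 2.2.1, featureCounts and Subread with the same build. Which aligner made the counts was not settled. The other columns of per-sample values numbered 0.

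The members, groups and lists were chosen with earlier results of these data known. CPM used the column totals and a pseudocount of 1. Stage, genes detected and matched cells were tested with edgeR 4.0.16 (TMM, glmQLFit, glmQLFTest) in R 4.3.3 on genes that exceeded 1 CPM in 8 or more libraries, with Benjamini-Hochberg adjustment over all genes tested. Calls on stage needed a fold change above 2 and an adjusted p under 0.05. DESeq2 1.42.0 was the alternative test. On simulated counts for 13660 genes with 200 slopes of 0.5, edgeR recovered 138 and called 8 unchanged genes, and DESeq2 recovered 157 and called 73. For 4-fold changes from small to medium the values were 153 and 3, and 169 and 28. Clusters were cut at a distance of 0.5 (1 minus r). Permutation tests enumerated all arrangements between stages and drew 100000 resamples for correlations, with a random seed of 1, in Python 3.11.15. The packages were numpy 2.4.6 for arrays, pandas 2.3.3 for tables and scipy 1.17.1 for clustering and ranks. Plots used matplotlib 3.10.9.

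The totals were 8442938 to 53173320 counts in oocytes, 8760201 to 40180192 in CCs and 26739954 to 39266980 in MGCs. The named genes were those with the steepest positive and negative slope on genes detected and the highest variance. The rule also covered gene symbols, marker lists and pathway lists, which were not used here since no identifier matched a symbol. Follicles share cows, and the labels do not say which, so that p-values measure the spread between follicles.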

Additional observations from a re-analysis of the deposited data

Results flagged for a closer look

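Dixon's test at 95% was applied to 10 measures in the 3 stages, 30 sets of 8 to 10 oocytes, and marked 6 values. Chance would mark about 1 in 20 sets of values that were not chosen for their spread. The 200 genes were chosen, and their groups formed, on the spread in these same oocytes, so that marks on their levels describe the choice. The measures also share genes and oocytes. OL71801 was marked among large oocytes for its genes detected (11861, with the next lowest at 14427), for the level of the 200 genes (-1.18, next -0.25), for that of group 1 (-1.15, next -0.29) and for that of group 3 (-4.28, next -0.13). OS50502 was marked among small oocytes for group 1 (-4.28, next 0.01). OM71002 was marked among medium oocytes for group 1 (-0.37, next -0.04), and its genes detected, 14442, were the fewest of that stage.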

How the results depend on the processing

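The choice of the genes depended on the measure of spread. Of the 200, 129 were still among the 200 most variable with log2(CPM + 5), 53 with a mean CPM of 50 or more, 90 with a mean CPM of 10 or more, 100 with all 30 oocytes, 71 with the median absolute deviation and 75 without the 3 oocytes with the fewest genes detected, an alternative chosen after seeing the data. Leaving out 1 oocyte kept 114 to 195, with 114 without OS50502. Genes rising with genes detected numbered 11, and were 52 at an unadjusted p under 0.05, 48 with DESeq2, 43 with genes above 1 CPM counted as detected, 26 with all 30 oocytes, 18 with the identifier prefix added, 0 without the 3 oocytes and 5 to 29 without 1 oocyte (5 without OS50502, 7 without OS62004 or OS70701, 17 without OL71801, 29 without OS70501). Those falling were 2 with all 30 oocytes and 0 to 1 without 1 oocyte. Over all genes tested, 1324 rose with genes above 1 CPM counted, 2101 with all 30 oocytes and 317 with the prefix added. The r of the level with genes detected was 0.49 without the 3 oocytes. Without them, the slope of ENSBTAG00000007090 turned to 1.0 (adjusted p = 0.547 from edgeR). Stage calls in oocytes at an unadjusted p under 0.05 numbered 7 from small to medium, 2 from medium to large and 8 from small to large, where DESeq2 gave 2 and leaving out 1 oocyte 0 to 3. In CCs the 3 calls became 26 at an unadjusted p, 17 with DESeq2, and 0 with all 30 follicles or with CS70701. In MGCs the 6 calls became 10 at an unadjusted p and 3 with all 30 follicles. Over all genes, CCs gave 1011 higher and 943 lower at an unadjusted p and 653 and 670 with DESeq2. MGCs gave 440 and 633 at an unadjusted p and 217 and 337 with all 30 follicles. Genes with r of 0.5 or more with MGCs numbered 4 with TMM-scaled CPM, 0 with all 30 follicles or Spearman's rho, and 1 with genes detected regressed out. With all 30 oocytes, the difference in genes detected fell from 1586 to 27.3 from small to medium and turned from -664 to 852 from medium to large, and a cut at a distance of 0.4 gave 5 groups. The cause of these changes was not tested. No paired analysis was possible because the stages hold different follicles, and the cell types of a follicle were compared without a test. Depth limits a count of 0 to 0.0564 to 0.355 CPM (3 counts) in the oocytes.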
